A study of Mus musculus with 22 samples.

Results

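The comparison set PyMT tumors at early carcinoma (week 10) against PyMT tumors at the stage of adenoma and mammary intraepithelial neoplasia (adenoma/MIN, week 8). It took the 3 samples whose labels give PyMT at week 10 and the 3 whose labels give PyMT at week 8, which are 6 of the 22 samples analysed here. Within them it took each autosomal CpG position covered in all 6 samples, and 1207255 of the 1586199 autosomal positions seen in any sample met that rule. All 6 mice were females heterozygous for the MMTV-PyVT transgene on the FVB background, and the DNA came from bulk mammary tumor tissue staged by a pathologist on H&E sections. In this model the mouse mammary tumor virus promoter drives middle T antigen, the polyoma virus oncoprotein, in mammary epithelial cells. The stages were sampled at different ages, so stage and age cannot be told apart within PyMT, and the normal mammary glands of 6 FVB females of weeks 8 and 10, 3 at each age and without the transgene, served as background. The disease state field of the labels reads carcinoma for the week 8 samples too, so the groups rest on the stage and week. The methods state that 2 outliers were left out. No PyMT group used here has fewer than the 3 mice of the design except weeks 6 and 12, with 2 mice each. The mice of weeks 6 and 12 served as mice outside the comparison. They also entered the estimate of the spread in the fits of 22 samples and of 10 PyMT samples.

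DNA methylation places a methyl group on cytosines that are followed by guanine (CpGs), and most CpGs of a mammalian genome carry it except those in CpG islands, the CpG-dense stretches at many promoters. Tumors commonly gain methylation at islands of developmental genes, many of which Polycomb complexes keep silent in normal cells, and lose it in repeats and between genes. Enhanced reduced representation bisulfite sequencing (ERRBS) cuts DNA with a restriction enzyme, keeps short CpG-rich fragments and converts unmethylated cytosines with bisulfite, so that each covered cytosine is scored by its methylated and unmethylated reads. In bulk tissue a change in the mixture of cells and a change within cells cannot be told apart.

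The 6 samples held 1329763 to 1434360 positions each, at a mean coverage of 60.3 to 79.97 reads at autosomal positions, and the tested positions had a mean coverage of 77.0 reads. Within a stage, the mean chi-square over positions was 2.21 to 3.11 for each pair of mice, so none differed by sampling noise alone and each counted as 1 sample. Across positions, pairs of mice correlated at 0.973 to 0.980 within a stage and at 0.971 to 0.984 between stages. The most alike pair was week 8 replicate 3 with week 10 replicate 1. On the CpGs of the mitochondrial genome, 0.181% to 0.276% of reads were called methylated. Over the 14 measured promoters of luminal epithelial markers, the mean methylation of a mouse was 4.13% to 5.33% at week 8 and 4.39% to 5.06% at week 10, against 9.39% to 13.8% in the FVB glands of the same weeks.

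Each position was tested by logistic regression of its methylated against its unmethylated reads on stage (likelihood ratio test). A differentially methylated cytosine (DMC) passed a Benjamini-Hochberg q-value of 0.01 and differed by 10 percentage points or more in the reads pooled by stage. From week 8 to week 10, 6247 positions rose (hyper-DMCs, 0.517% of those tested) and 5010 fell (hypo-DMCs, 0.415%), so that 55.5% of the DMCs were gains. Without week 10 replicate 2 the direction of that split turned, with 6063 gains and 6256 losses (49.2% gains). The median size was 17.0 points for gains and 17.3 points for losses, and 780 gains and 675 losses reached 25 points. At 4184 hyper-DMCs (66.98%) all 3 week 10 mice lay above all 3 week 8 mice, and at 3257 hypo-DMCs (65.0%) all 3 lay below. The normal glands also differed between the same ages. In FVB, 5301 positions rose (0.445%) and 2819 fell (0.237%), and 65.3% of their DMCs were gains. The DMCs of the strains lay at different positions for the most part. Of positions tested in both strains, 68 rose in both, out of 6116 hyper-DMCs in PyMT and 5210 in FVB, and 37 fell in both, out of 4878 and 2767. In the opposite directions, 61 rose in PyMT and fell in FVB, and 103 fell in PyMT and rose in FVB. Over all 1152116 positions tested in both strains, 0.452% rose and 0.240% fell in FVB. Each overlap, in the same and in the opposite direction, was a larger share of the PyMT DMCs than that. However, 66.6% of all positions were under 20% in FVB, against 27.1% of hyper-DMCs and 5.03% of hypo-DMCs. In FVB 0.0516% of such positions rose and 0.0427% fell, against 1.95% and 0.960% of those at 20% to 80%. The shares were not compared at like levels of methylation, so no excess is read from them.

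The logistic test counts reads and not mice as units. The factor by which the variance between mice exceeded that of the reads was set to 1 at each position where it was lower. Its mean was 1.84 over all positions, with a median of 1, and 3.70 at the DMCs. Corrected for this excess, the F test called 0 positions in either direction, and a chi-square test called 496 gains and 382 losses. With 6 mice the F test has few degrees of freedom. Adjusted over 1207255 positions, it could hardly call any, so its 0 says little about the single positions. Limma on the logit of methylation, with the mouse as the unit, also called 0 positions with a difference of at least 10 points, although 9450 were higher and 7721 lower at an unadjusted p under 0.05. Without week 8 replicate 2 the hyper-DMCs were 3983. The counts of DMCs are therefore read here as a description of these 6 tumors, and values per mouse are given beside them.

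The densest clusters of change were short. Runs of tested positions, spaced by no more than 100 bp, gave 21 gained regions (132 positions, median length 40 bp) and 24 lost regions (100 positions, median length 44.5 bp), each with at least 3 positions, a mean difference of at least 20 points and at least 1 DMC of 25 points or more. They were chosen on this difference, so their values are a description. Of the gained regions 9 were intergenic, 5 intronic, 4 exonic and 3 within 2 kb of a transcription start site (TSS), and of the lost regions 12, 5, 4 and 3. The mice of the stages did not overlap in 17 gained and 20 lost regions.

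The reference sequences of 5 of these regions follow, from the RefSeq assembly GRCm38 (mm10), forward strand, 5′ to 3′, shown because they were among the regions of at least 5 positions with the largest differences and non-overlapping mice. Capitals mark the CpGs measured in all 6 samples. The gained regions lay at chr3:152092700-152092998, chr7:34444362-34444412 and chr2:169154973-169155026, and the lost regions at chr2:152339816-152339964 and chr2:11100325-11100419, each range with 2 flanking bases at either end. All are named by the nearest TSS, and a negative distance from a TSS is upstream of it.
Gipc2 region: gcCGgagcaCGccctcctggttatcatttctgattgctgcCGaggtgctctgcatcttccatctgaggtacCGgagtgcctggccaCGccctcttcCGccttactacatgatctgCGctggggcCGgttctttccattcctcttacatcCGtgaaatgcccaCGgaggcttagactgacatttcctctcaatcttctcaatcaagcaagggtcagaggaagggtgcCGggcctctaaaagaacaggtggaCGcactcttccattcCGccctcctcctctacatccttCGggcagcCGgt
Lsm14a region: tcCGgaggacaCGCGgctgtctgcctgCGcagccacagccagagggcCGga
1700017J07Rik region: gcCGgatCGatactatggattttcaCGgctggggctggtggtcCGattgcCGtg
Trib3 region: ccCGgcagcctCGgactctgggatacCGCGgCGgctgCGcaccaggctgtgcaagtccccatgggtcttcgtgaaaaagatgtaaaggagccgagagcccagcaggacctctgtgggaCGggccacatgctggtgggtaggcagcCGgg
Prkcq region: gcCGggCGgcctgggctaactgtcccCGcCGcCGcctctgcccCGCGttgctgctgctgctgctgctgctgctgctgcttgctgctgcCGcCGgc

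The longest gained region lay between genes, 73051 bp downstream of the TSS of Gipc2, which encodes a PDZ domain protein. It held 24 measured positions in 15 CpGs over 295 bp, and 17 of the positions were hyper-DMCs. Mean methylation of the region was 20.7%, 32.8% and 28.4% in the week 8 mice and 54.0%, 55.9% and 46.2% in the week 10 mice. The week 10 mice were all above the week 8 mice by more than the spread within either stage, but the mice outside the comparison did not extend the pattern, with means of 35.8% at week 6 and 39.4% at week 12. The FVB glands had 38.9% at week 8 and 35.9% at week 10, so the week 8 tumors lay below normal glands here and the week 10 tumors above them.

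The intergenic region at -54682 bp from the TSS of Lsm14a, which encodes an RNA-binding protein of processing bodies, had 40.3%, 31.8% and 22.1% in the week 8 mice. The week 10 mice had 45.2%, 74.2% and 54.5%. The stages did not overlap, but week 10 replicate 1 lay closer to week 8 replicate 1 than to the other week 10 mice. The means were 25.8% at week 6 and 37.9% at week 12, and FVB glands had 54.5% at week 8 and 49.3% at week 10. In the region 176730 bp downstream of the TSS of 1700017J07Rik the week 8 mice had 56.2%, 37.8% and 56.6%, and the week 10 mice 76.2%, 68.1% and 75.7%. Its level at week 6 was 78.0% and at week 12 64.1%, so week 8 was the lowest of the 4 PyMT stages in this region.

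The lost region at the core promoter of Hrct1 covered the same 6 positions as the measured promoter. The week 8 mice had 70.5%, 56.3% and 50.2% and the week 10 mice 27.7%, 39.5% and 41.5%. The mice outside the comparison lay the same way, with 59.8% at week 6 and 26.9% at week 12, while FVB glands had 74.1% at week 8 and 76.6% at week 10. An exonic region of Trib3, which encodes a stress-induced pseudokinase, lay 4170 bp downstream of the TSS and had 75.8%, 70.2% and 74.7% at week 8 against 56.2%, 45.97% and 55.9% at week 10. FVB glands had 87.7% and 91.7% there. The region at -72010 bp from the TSS of Prkcq, the protein kinase C theta of T cell receptor signaling, held 11 positions, 8 of them hypo-DMCs. It had 38.3%, 34.8% and 33.3% at week 8 and 20.2%, 15.6% and 7.78% at week 10, with 16.8% at week 6 and 17.1% at week 12, so here week 8 was the stage that stood apart. The repeat track of the reference masked 36.4% of the measured positions of this region.

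The other regions that met the naming rule were thinly covered. In Fut4, a fucosyltransferase gene, the region 986 bp downstream of the TSS had a mean coverage of 12.6 reads and 1 DMC among 5 positions. Its values were 63.5%, 50% and 53.8% in the week 8 mice and 96.7%, 96.4% and 76.4% in the week 10 mice. The mice outside the comparison lay the other way there, with 77.8% at week 6 and 63.8% at week 12. The intronic region of F630040K05Rik, at a mean coverage of 18.6 reads, had 16.3%, 0% and 8.24% at week 8 and 19.3%, 43.3% and 37.8% at week 10. It had 11.9% at week 6 and 17.9% at week 12. Of all 21 gained regions 17 were higher at week 12 than at week 6, by a median of 11.6 points over the regions, and of the 24 lost regions 17 were lower, with a median of -6.20 points. In FVB 12 of the gained regions were higher and 9 lower at week 10 than at week 8, and of the lost regions 11 were higher and 13 lower.

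**Figure D1:**
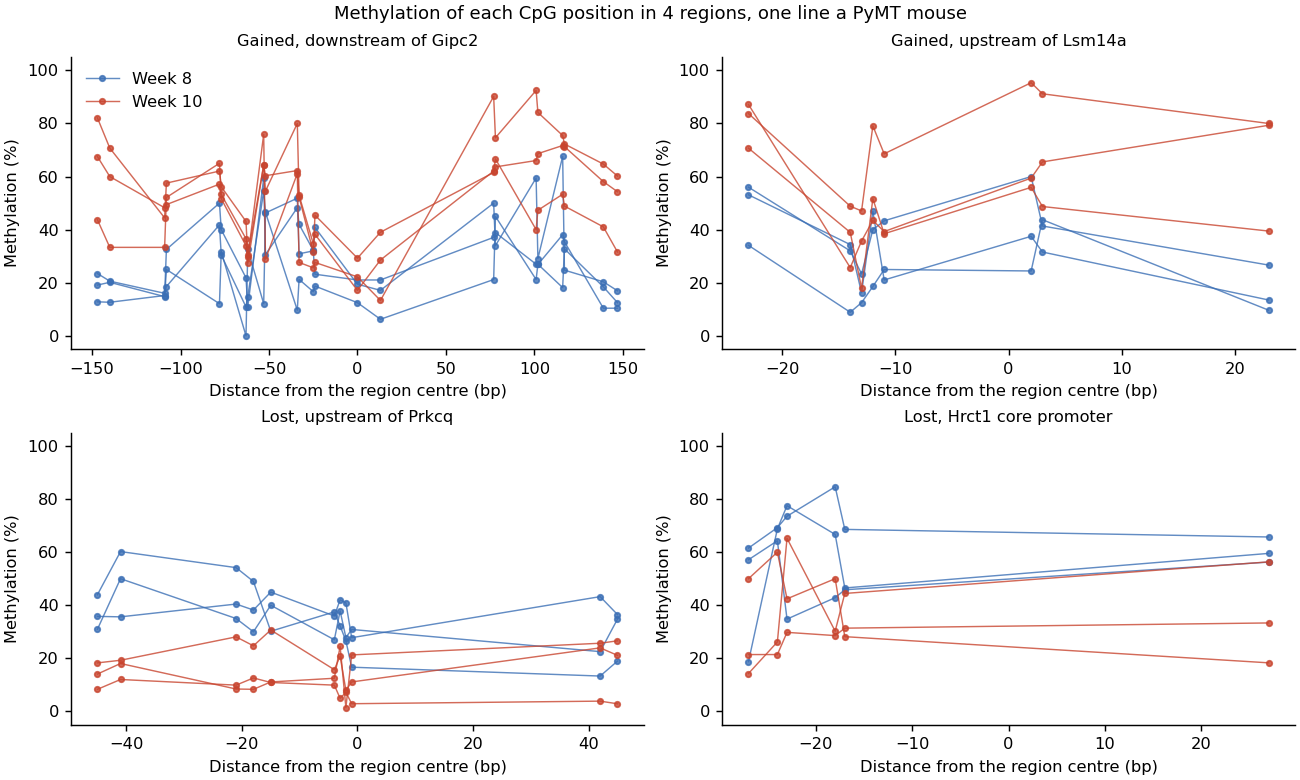
Methylation in percent (vertical axis) of each measured CpG position against its distance in bp from the centre of 4 regions, with a blue line for each PyMT mouse of week 8 and a red line for each of week 10. Over the region near Gipc2 the red lines run above the blue ones at most positions (means of 46.2% to 55.9% against 20.7% to 32.8%), and near Prkcq they run below (7.78% to 20.2% against 33.3% to 38.3%).

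Promoters were tested with the mouse as the unit. The mean methylation over positions within 2 kb of any curated RefSeq TSS was compared for 15223 genes with at least 5 positions (limma with a trend on the percent scale, Benjamini-Hochberg adjustment). No promoter passed at an adjusted p under 0.05 (0% called), the smallest adjusted p was 0.766, and 551 promoters were higher (3.62%) and 383 lower (2.52%) in early carcinoma at an unadjusted p under 0.05. Limma on fixed 1 kb windows also called 0 of 51852 (0%), with 1679 higher (3.24%) and 1242 lower (2.40%) at an unadjusted p under 0.05 and a smallest adjusted p of 0.311. For promoters, the mice of the stages did not overlap in 923 cases with week 10 higher (6.06%) and in 822 with week 10 lower (5.40%). More promoters carried gains than losses at single positions. There were 928 promoters with at least 1 hyper-DMC and 440 with at least 1 hypo-DMC, and 54 held 5 or more hyper-DMCs against 8 with 5 or more hypo-DMCs. Positions within 500 bp of a TSS had a mean of 1.88% at week 8, which left little room for a fall of 10 points. The median change over all promoters was -0.00189 points.

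The genes below are the 10 with the largest gain and the 10 with the largest loss among promoters in which the stages did not overlap, and each is described because of its size, since none passed the adjusted test. For 3 of them the stretch that held the DMCs is shown, on the forward strand of GRCm38 (mm10) with the CpGs called as DMCs in capitals: chr11:58961914-58961971, chr3:86547104-86547372 and chr2:127425164-127425249. They show where within the promoters the change sat.
Trim17 promoter, gained: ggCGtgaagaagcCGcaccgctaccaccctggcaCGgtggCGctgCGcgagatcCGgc
Mab21l2 promoter, gained: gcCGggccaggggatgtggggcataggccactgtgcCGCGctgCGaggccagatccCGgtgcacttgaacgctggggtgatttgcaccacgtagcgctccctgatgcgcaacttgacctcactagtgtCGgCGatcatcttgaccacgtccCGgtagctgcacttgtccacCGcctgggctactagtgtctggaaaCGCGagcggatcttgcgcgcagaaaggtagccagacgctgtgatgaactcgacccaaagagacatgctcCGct
Gpat2 promoter, lost: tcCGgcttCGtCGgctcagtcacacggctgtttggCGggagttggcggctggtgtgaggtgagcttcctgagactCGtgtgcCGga

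Trim17, on chromosome 11, encodes a ubiquitin ligase of the tripartite motif family. Its promoter had 67.9%, 61.7% and 75.8% in the week 8 mice and 83.5%, 88.6% and 84.8% in the week 10 mice, with a difference of 17.15 points (SE 3.72, unadjusted p = 0.00326, limma) and 9 hyper-DMCs among 14 positions. The stretch with these DMCs lay at -1838 bp from the TSS of Trim17 and 232 bp downstream of the TSS of H3f4, a neighboring histone gene, inside which it falls. In FVB the promoter had 57.8% at week 8 and 50.9% at week 10.

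Mab21l2, on chromosome 3, is a regulator of eye and body wall development. Its promoter had 47.0%, 48.2% and 53.3% at week 8 and 62.8%, 68.2% and 65.6% at week 10, a difference of 16.02 points (SE 2.55, unadjusted p = 0.000646, limma) with 16 hyper-DMCs among 34 positions. The called stretch lay 1045 bp downstream of its TSS and also inside Lrba, the gene that hosts it. The other PyMT mice had means of 43.0% at week 6 and 66.5% at week 12, and FVB glands 21.3% and 19.3%.

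The promoter of Serping1, which encodes the C1 inhibitor of complement, had 17.4%, 21.9% and 19.3% at week 8 and 35.4%, 30.0% and 33.4% at week 10 over 7 positions. Its difference of 13.37 points (SE 1.91) had the smallest unadjusted p of the named genes (0.000349, limma), and week 6 and week 12 mice had 17.0% and 30.4%. Ackr3, the atypical receptor for the chemokine CXCL12, had 49.1%, 38.4% and 40.3% against 57.8%, 59.9% and 51.6%. Snurf, part of the imprinted Snrpn locus, had 28.7%, 35.1% and 31.0% against 43.2%, 44.9% and 45.9%, while FVB glands had 48.7% at week 8 and 38.5% at week 10.

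The remaining 5 promoters with large gains held 1 to 5 hyper-DMCs each. Mcmdc2, a meiotic recombination gene, had 49.5%, 50.2% and 45.1% at week 8 and 73.9%, 56.1% and 61.9% at week 10. Its means at week 6 and week 12 were 55.3% and 54.7%. Akr1b8, an aldo-keto reductase gene, had 67.6%, 50.2% and 51.3% against 73.9%, 67.6% and 72.3%, with the lowest week 10 mouse just at the highest week 8 mouse. The mice outside the comparison lay the other way at Akr1b8, with 63.6% at week 6 and 57.9% at week 12. The differences were 13.71 points for Veph1, 12.39 points for 1700001L05Rik and 11.75 points for Lhcgr, the receptor of luteinizing hormone. In the same order, the week 6 and week 12 means were 32.1% and 51.2%, 16.7% and 24.2%, and 33.9% and 47.0%. At Lhcgr the lowest week 10 mouse (43.4%) was next to the highest week 8 mouse (43.3%).

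Among the losses, Gpat2, a mitochondrial acyltransferase gene known for its expression in testis, had 79.9%, 71.2% and 77.1% at week 8 and 59.8%, 65.6% and 67.3% at week 10. The difference was -11.82 points (SE 3.11, unadjusted p = 0.00825, limma), and the 6 hypo-DMCs among 12 positions lay around its TSS, as the capitals in its sequence show. Foxs1, a forkhead transcription factor gene, had 61.0%, 52.0% and 50.2% against 43.0%, 48.7% and 36.6%, with 10 hypo-DMCs among 29 positions. At Foxs1 the gap between the closest mice of the stages was smaller than the spread within either stage. In FVB Gpat2 had means of 77.9% and 78.5%, close to its week 8 tumor mean of 76.1%. Foxs1 had 68.9% and 70.4% in FVB, above all tumors of both stages.

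Hrct1 had the largest loss of any named promoter, -22.81 points (SE 6.13, unadjusted p = 0.00908, limma). Eng, which encodes endoglin, a TGF-beta co-receptor of endothelium, had 39.4%, 33.9% and 30.8% against 19.2%, 23.1% and 25.7% over 5 positions at a mean coverage of 25.1 reads, and held no DMC. The differences of the other losses were -13.28 points for 1700110K17Rik, -12.97 for Lrrc14b, -11.42 for Gm11634, -9.95 for Gm34653, -9.87 for Gm5 and -9.61 for Prr23a2. Of these, Gm11634 held no DMC and the others 1 to 3 hypo-DMCs each.

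**Figure D2:**
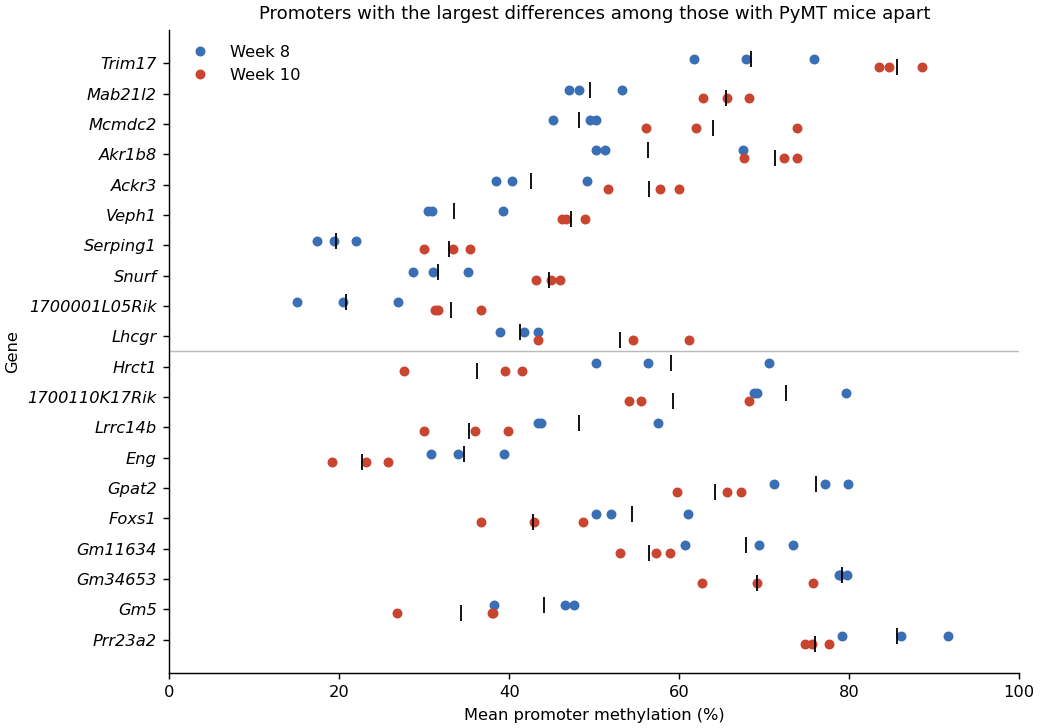
Mean promoter methylation in percent (horizontal axis) of each PyMT mouse for 20 genes, the 10 largest gains above the line and the 10 largest losses below it, with blue points for week 8, red points for week 10 and a black tick at each group mean. The stages do not overlap at any of the 20 genes, because that was part of how they were chosen, as at Serping1 (17.4% to 21.9% against 30.0% to 35.4%).

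A fit that took its estimate of the spread from all 22 samples called 27 promoters as higher (0.180% of 14993) and 1 as lower (0.00667%), and among 1 kb windows 34 higher (0.0701% of 48532) and 1 lower (0.00206%). On the logit scale the same fit called 0 promoters and 1 window, lower, and with the 10 PyMT samples alone limma called 0 of either. Among the 27, 4930554H23Rik and Otud7a share their positions, as do 9430041J12Rik and Ttyh1, so these counts include the same positions more than once. In all 28 called promoters the mice of the stages did not overlap, and 22 of them had a mean under 10% at week 8, and the lowest of the 27 rises was 0.397 points. Of the 27 that were higher, 26 were also higher at week 12 than at week 6. The genes given here were chosen after their values were seen. Fam43a had 2.45%, 2.44% and 2.84% at week 8 and 4.87%, 4.92% and 4.33% at week 10, with 9 hyper-DMCs among 125 positions. Eef1a2, a translation elongation factor gene of neurons and muscle, had 3.44%, 4.28% and 3.67% against 5.58%, 6.79% and 6.45%. Tafa5, which encodes a small secreted protein, had 2.92%, 2.96% and 4.34% against 5.61%, 5.42% and 6.51%, with 14 hyper-DMCs among 344 positions. The adjusted p of each of these was 0.00204 in the fit of 22 samples (limma). At Tafa5 the week 6 and week 12 mice had means of 1.79% and 7.83%, and FVB glands had 0.625% and 0.816%. Rfx8, a gene of the regulatory factor X family, was among the larger of these differences, with 21.7%, 18.1% and 18.6% against 31.0%, 35.1% and 27.5% (adjusted p = 0.00516, limma).

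Gene lists were described by how many promoters had non-overlapping stages, beside the 6.06% higher and 5.40% lower over all promoters. No member of any list passed the test on 6 samples. The counts depended on the promoter width. Within 500 bp of the TSS, 702 of 13704 promoters were higher without overlap, and by list 16 of 89 homeobox and paired box genes outside the Hox clusters, 4 of 34 Hox genes, 2 of 44 Wnt genes, 3 of 38 genes of the study list of Polycomb targets for all stages and 2 of 26 tumor suppressor genes. Members that did not overlap, other than those the naming rule chose, are named here after their values were seen. Of 98 measured homeobox and paired box genes outside the Hox clusters, transcription factors of embryonic patterning, 21 were higher without overlap and 0 lower, 72 were higher and 26 lower by their means, and the median change was 0.302 points against -0.00189 over all promoters. The mean over the list was 3.24%, 3.33% and 3.39% in the week 8 mice and 3.85%, 4.00% and 3.53% in the week 10 mice, so the stages did not overlap here either, and week 10 replicate 3 lay closest to week 8. Phox2a, a regulator of autonomic neurons, had 17.97%, 18.3% and 18.8% at week 8 and 22.5%, 22.6% and 22.6% at week 10 (4.19 points, unadjusted p = 0.0015, limma), with 15.05% at week 6 and 24.3% at week 12. Nkx2-9 had 4.24%, 3.96% and 3.63% against 5.66%, 6.11% and 5.67%, and was called in the fit of 22 samples (adjusted p = 0.00516, limma). Nkx2-6 had means of 13.7% and 18.02%, with the stages overlapping at 1 mouse. Otp, Otx2 and Alx1 were among the others without overlap, with means of 5.6%, 5.0% and 3.5% at week 8 and 7.8%, 7.0% and 5.6% at week 10.

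Of the 39 Hox genes, which set position along the body axis, 9 were higher without overlap and 2 lower, with a median change of 0.409 points and 31 higher and 8 lower by their means. Without week 10 replicate 2 the median was 0.140 points and the split 24 and 15. The mean over the list overlapped between stages, at 7.24%, 6.81% and 6.47% against 6.85%, 8.10% and 6.83%. The FVB glands moved the same way over this list, from 7.935% at week 8 to 8.37% at week 10, against 6.84% and 7.26% in PyMT. The largest absolute changes were -2.65 points at Hoxb3 and 2.49 points at Hoxb1, and the other member that was lower without overlap was Hoxb8. Among 45 genes of the Sox, T-box, forkhead and GATA families 6 were higher without overlap (among them Sox11, Foxd2, Foxd3, Foxe1 and Foxf1) and 1 lower (Eomes), with 33 higher and 12 lower by their means. Tbx20 differed by 4.25 points and Tbx4 by 2.66 points, and both overlapped. The study lists of Polycomb target genes were chosen on these samples and are not independent. In the list for late carcinoma 4 of 31 were higher without overlap (Hoxb7, Isl1, Ripk3 and Wt1) and 2 lower (Cntfr and Hoxb8), and in the list for all stages 8 of 40 were higher and 1 lower (Eomes). Cyp26c1, a retinoic acid-degrading enzyme gene of the latter list, had 57.4%, 55.8% and 60.6% against 65.2%, 67.1% and 64.6%, with 55.8% at week 6 and 67.8% at week 12. Of the genes of the Polycomb complexes themselves 0 of 16 were without overlap, and the largest changes were 0.33 points at Aebp2 and 0.29 points at Cbx7.

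Among 44 genes of Wnt signaling, the pathway of secreted ligands and Frizzled receptors that maintains mammary stem cells, 9 were higher without overlap and 1 lower (Axin2, a feedback inhibitor), while 25 were higher and 19 lower by their means. With promoters of 500 bp on each side 2 of 44 were higher without overlap, against 702 of 13704 over all promoters. With the 2 kb upstream alone it was 4 of 38, against 552 of 10623. The ligand genes among the 9 were Wnt1 and Wnt10b, the receptor genes Fzd1, Fzd2, Fzd5 and Fzd8, the secreted antagonist genes Dkk1 and Dkk3, and the remaining gene the nuclear effector Tcf7l2. The study linked Fzd1, Fzd2, Fzd5 and also Axin2, which was lower here, to hypermethylated regions found in these samples. These members are therefore not independent. Fzd2 had 32.2%, 32.1% and 31.9% at week 8 and 36.0%, 39.5% and 35.7% at week 10 over 72 positions, with 27.5% at week 6 and 40.1% at week 12 and 10.4% and 8.79% in FVB. Dkk3 had 20.7%, 25.4% and 26.2% against 29.2%, 27.7% and 28.1%, with 21.1% at week 6 and 36.2% at week 12. In Notch and hedgehog signaling 5 of 25 were higher without overlap (Notch3, Dll3, Dll4, Ihh and Dhh) and 1 lower (Smo). Of these the study linked Dll4 to hypermethylated regions of these samples too. Dll3, a Notch ligand gene, had 19.01%, 17.2% and 16.5% against 22.1%, 20.5% and 19.96%, with 19.7% at week 6 and 19.9% at week 12. The stages overlapped at Notch4, the other named member, which differed by -2.20 points. In TGF-beta and BMP signaling 3 of 39 were higher (Tgfb3, Bmp6 and Gdf6) and 2 lower (Tgfbr3 and Ltbp1), with -5.24 points at Gdf5, which overlapped, and 1.32 points at Tgfb3. The genes for proteins that middle T antigen engages and for the kinases downstream were nearly unmethylated, with a mean of 1.79% and 1.81% over 27 genes, 1 higher without overlap (Map2k1) and 2 lower (Mapk3 and Yap1). Akt2 and Shc1 had its largest absolute changes, 1.23 and 0.64 points, and both overlapped.

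Among the 29 measured tumor suppressor genes known to be methylated in human breast cancer 4 were higher without overlap (Cdkn2b, Ccnd2, Hic1 and Slit2) and 0 lower. Hic1, a transcriptional repressor gene with 257 positions, had 19.7%, 18.3% and 19.7% at week 8 and 23.0%, 21.3% and 20.2% at week 10, with 6 hyper-DMCs, and FVB glands had 9.64% and 8.18%. Fhit differed by 0.81 points with overlap. In the vessel growth list 3 of 24 were higher without overlap (Flt4, Dll4 and Prkcz) and 1 lower (Pxn), with 7 higher and 17 lower by their means, and the changes were 2.19 points at Prkcz and -2.05 points at Dok3. The study linked Dll4, Prkcz, Pxn and Dok3 to hypermethylated regions found in these samples, so these members are not independent. Among the 18 measured matrix proteases and inhibitors all 18 were higher by their means in the main setting, with a median of 0.244 points, and only Mmp24 had no overlap. At a minimum coverage of 20 reads 13 were higher and 5 lower (median 0.120 points), within 500 bp of the TSS 11 and 6 (0.0963 points), and without week 8 replicate 1 13 and 5 (0.131 points). Plaur differed by 1.05 points with overlap. Of 18 basement membrane genes Nid2 was higher and Agrn lower without overlap, and the largest changes were -2.06 points at Lamb2 and 1.86 points at Lamb1. In the mesenchymal transition list Fn1 was higher and Cdh2 lower of 10, with 1.05 points at Foxc2 and 1.01 points at Twist2. In the mesenchymal genes that the study lists, also chosen on these samples, Tpm2 and Nid2 were higher and Tpm1 lower of 19. The imprinted genes, methylated on the copy from 1 parent, had 3 of 33 higher without overlap (Snrpn, Dlk1 and Nap1l5) and 2 lower (Mcts2 and Zrsr1). Snrpn had 39.99%, 46.9% and 41.3% against 50.3%, 53.3% and 54.4%, and shares its start site and positions with Snurf. Peg13 differed by -9.56 points with overlap. Of 23 germline genes, whose promoters are methylated in somatic cells, only Mael was higher without overlap, and the list mean was 81.9% and 82.6%. Hormad2 had 65.9%, 42.5% and 57.3% against 67.2%, 63.3% and 65.6%, which overlapped, and Zfp42 differed by -4.04 points. Of the 7 DNA methylation enzyme genes Dnmt1 was lower without overlap (8.5% and 8.3%), and Uhrf1 and Tet1 differed by -0.87 and 0.22 points.

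**Figure D3:**
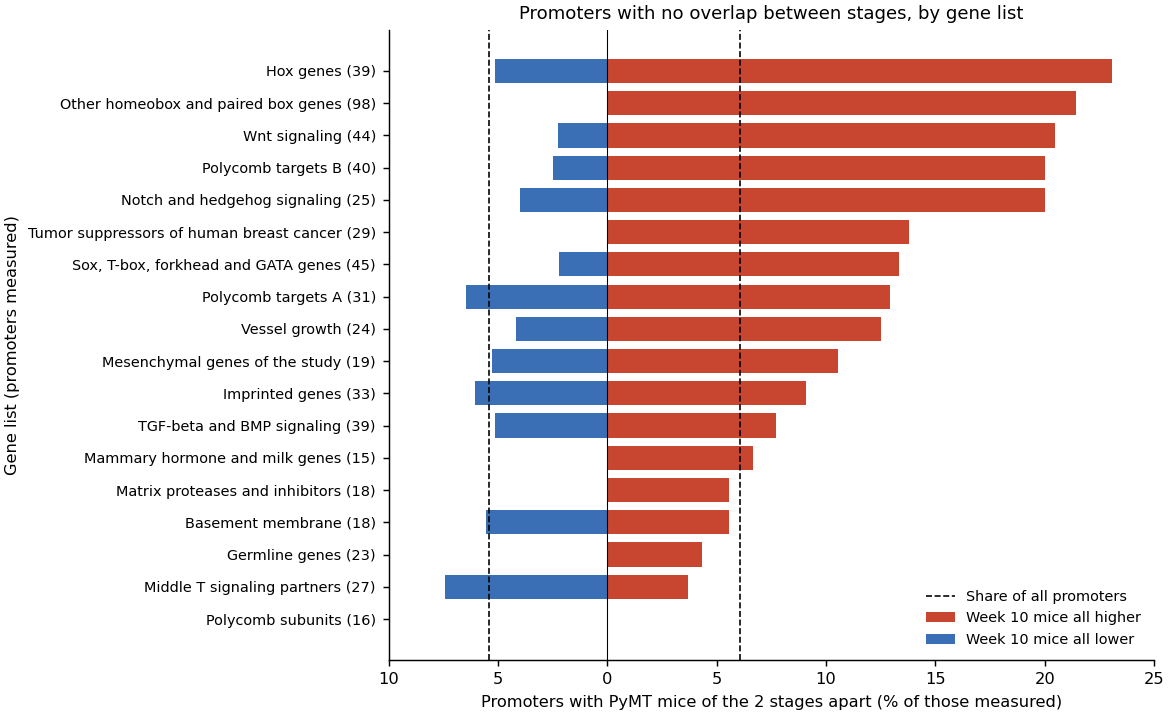
Share of measured promoters, in percent of each list with at least 15, in which all 3 week 10 mice lay above (red bars, to the right) or below (blue bars, to the left) all 3 week 8 mice. The dashed lines give the shares over all promoters, 6.06% and 5.40%. The red bar of the homeobox and paired box genes outside the Hox clusters, 21 of 98, passes its dashed line, and that list has no blue bar.

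Promoters of cell type markers were listed to follow the mixture of cells. Over the luminal markers 0 of 14 were higher without overlap and 1 lower (Cldn3, 1.6% and 0.7%), with 1.38 points at Muc1 and -0.92 points at Krt8. Over the 7 basal and myoepithelial markers the mean per mouse was 18.9% to 20.7% at week 8 and 19.4% to 22.4% at week 10, and Tpm2 alone was higher without overlap. Tagln, which encodes transgelin of contractile cells, had 43.7%, 39.9% and 47.5% against 57.6%, 49.8% and 46.8%, and Cnn1 differed by 1.72 points. The 7 adipocyte markers ranged from 17.9% to 19.3% and from 17.1% to 19.2%, with -3.94 points at Lep and -0.88 points at Pnpla2. The 8 endothelial markers ranged from 19.6% to 22.2% and from 20.5% to 23.3%, with Egfl7 higher without overlap, 7.87 points at Esam and 1.98 points at Sox17, both overlapping. The 4 fibroblast markers ranged from 19.96% to 22.6% and from 19.3% to 24.3%, with 4.48 points at Pdgfrb and -3.70 points at Fap. The 4 leukocyte markers ranged from 50.5% to 55.6% and from 53.4% to 54.9%, with 2.08 points at Cd8a. Of the 15 hormone and milk genes of the mammary gland Areg was higher without overlap, and Wap and Csn3 differed by -5.22 and -1.42 points. The per-mouse means of all 6 marker lists overlapped between the stages, and the part of a changed cell mixture in the results above was not tested.

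By place in the genome, gains outnumbered losses most where CpGs are dense and normally unmethylated. A position with almost no methylation can rise by the 10 points of a DMC but not fall by them. A nearly full one can fall but not rise. The week 8 means were 1.26% at positions under 20% in FVB, 1.88% in core promoters and 0.803% where 60 or more CpGs surround a position. They were 87.1% at positions over 80% in FVB. The splits by class are therefore partly set by the level of each class. In core promoters, within 500 bp of a TSS, 807 positions rose and 218 fell of 566660 (78.7% gains), and in promoter shoulders, from there to 2 kb, 743 rose and 370 fell. In exons 1117 rose and 889 fell, in introns 1635 and 1469, and between genes 1945 and 2064. Positions under 20% in FVB had 1691 gains and 252 losses (87.0% gains), and positions over 80% had 1675 gains and 2234 losses (42.8%). Where the surrounding 500 bp held 60 or more CpGs, 298 positions rose and 24 fell (92.5% gains), against 29 and 19 in FVB. In soft-masked repeats 427 rose and 815 fell (34.4% gains), whereas in FVB 555 rose and 231 fell. Hyper-DMCs had a median of 16 CpGs in their surrounding 500 bp and hypo-DMCs of 11, against 36 over all positions tested.

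**Figure D4:**
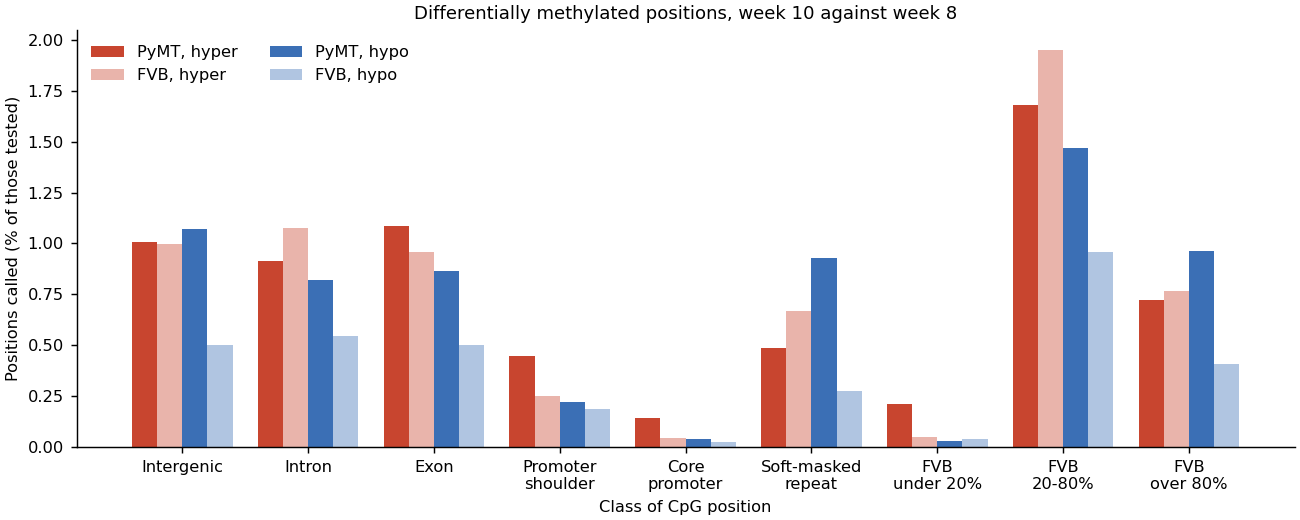
Positions called, in percent of those tested (vertical axis), by class of CpG position, with gains in red and losses in blue, and with PyMT in full color beside FVB in pale color. In PyMT the gains exceed the losses in core promoters (0.142% and 0.0385%) and at positions under 20% in FVB (0.210% and 0.0314%). In both of these classes most positions were too low at week 8 to fall by the 10 points of a DMC. In soft-masked repeats the losses exceed the gains.

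The per-mouse means gave sizes for these contrasts with the mouse as the unit, and with 3 against 3 mice a two-sided exact permutation test cannot go below p = 0.1. Over all positions the mean was 25.2%, 24.5% and 24.5% at week 8 and 24.7%, 25.1% and 24.7% at week 10 (24.7% ± 0.395 and 24.8% ± 0.221, SD, n = 3 each, p = 0.6, exact permutation test). With positions weighted by their reads the means were 21.3% and 22.97%, a difference of 1.69 points in place of 0.0629 (exact permutation p = 0.3). Over positions under 20% in FVB it was 1.22%, 1.27% and 1.29% at week 8 and 1.43%, 1.47% and 1.30% at week 10, a difference of 0.143 points (exact permutation p = 0.1), without overlap but with week 10 replicate 3 next to the week 8 mice. In the mice outside the comparison these positions had 1.10% and 0.997% at week 6 and 1.61% and 1.65% at week 12. The FVB glands moved from 0.956% to 1.002% at the same ages, and the difference between the strains in this change, 0.0962 points, had p = 0.3 over 400 rearrangements of week within strain (exact permutation test). Core promoters had 1.88%, 1.89% and 1.89% against 1.98%, 2.02% and 1.89% (exact permutation p = 0.1). The surroundings with 60 or more CpGs had 0.754%, 0.826% and 0.829% against 0.899%, 0.938% and 0.840% (exact permutation p = 0.1). Soft-masked repeats had 56.5%, 54.9% and 54.5% against 54.0%, 55.2% and 54.9%, and the stages overlapped (exact permutation p = 0.6).

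To follow positions that differ between hyperplasia and late carcinoma, positions were chosen on the week 6 and week 12 mice alone, which take no part in the comparison. The 7253 positions that were at least 25 points higher at week 12 than at week 6 had a mean of 48.7%, 47.0% and 49.9% in the week 8 mice and 54.5%, 54.3% and 51.0% in the week 10 mice. The difference was 4.75 points, without overlap (exact permutation p = 0.1). The choice sets the week 6 and week 12 mice at the extremes (32.9% and 64.0%), and FVB glands also lay between them, at 39.8% at week 8 and 40.8% at week 10. In FVB the difference was 1.01 points, and the difference between the strains was 3.74 points (p = 0.185, exact permutation test). Of these positions 504 were hyper-DMCs and 24 hypo-DMCs (6.95% and 0.331%), against 63 and 39 in FVB. The 8199 positions that were at least 25 points lower at week 12 had 62.2%, 57.4% and 55.2% at week 8 and 53.3%, 57.5% and 56.3% at week 10. Here the stages overlapped, the difference of -2.61 points had p = 0.5 (exact permutation test), and without week 8 replicate 1 it was -0.644 points. There were 225 hypo-DMCs and 55 hyper-DMCs among them.

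**Figure D5:**
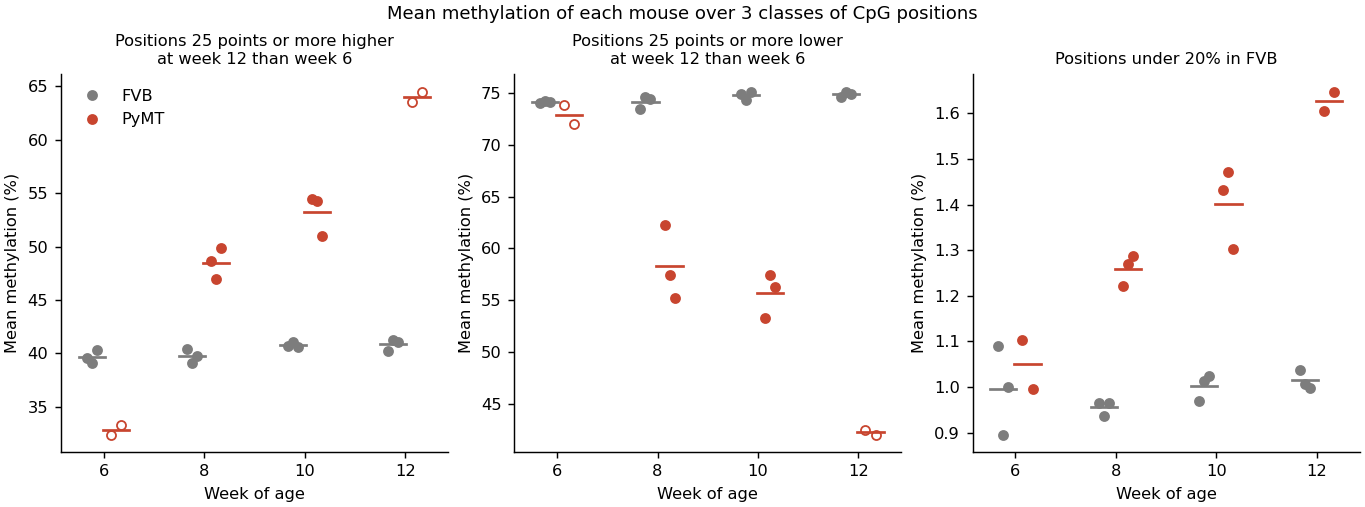
Mean methylation in percent (vertical axes) of each mouse at weeks 6, 8, 10 and 12 (horizontal axes) over 3 classes of CpG positions, with PyMT in red, FVB in grey, a point for each mouse and a bar at each group mean, and with open points for the mice on which the first 2 classes were chosen. In the left panel the week 10 PyMT mice (51.0% to 54.5%) lie above the week 8 mice (47.0% to 49.9%). In the middle panel the stages overlap, and in the right panel PyMT lies above FVB at weeks 8 and 10. The class of the right panel was chosen on the mean of the 12 FVB samples, so FVB is low there by choice.

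Read in the other direction, the DMCs of this comparison were followed in the week 6 and week 12 mice. Of 6146 hyper-DMCs covered there 65.9% were higher at week 12 than at week 6, with a median difference of 4.87 points, and 34.4% were higher by at least 10 points against 9.76% lower by as much. Of 4942 hypo-DMCs 63.7% were lower, with a median difference of -3.60 points. Over all positions 32.02% were higher and 27.5% lower, the rest being equal. In FVB 51.9% of the hyper-DMCs were higher at week 10 than at week 8 and 44.5% of the hypo-DMCs lower. The level did not run in 1 direction across the 4 stages, however. Hyper-DMCs had means of 52.3%, 47.0%, 65.0% and 58.1% at weeks 6, 8, 10 and 12, and hypo-DMCs of 57.9%, 64.3%, 45.96% and 53.7%, where weeks 8 and 10 are the samples on which the DMCs were chosen. For promoters, 719 of the 923 that were higher without overlap (77.9%) were also higher at week 12 than at week 6, against 61.9% of all promoters, and 342 of the 822 that were lower (41.6%) were also lower, against 37.4%. Where the difference was at least 2 points these counts were 186 of 225 and 58 of 106.

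Whether the change from week 8 to week 10 differed from that of normal glands was tested by the interaction of strain and week over 12 samples. Limma called 0 of 15062 promoters and 0 of 49607 windows, with smallest adjusted p of 0.213 and 0.288 and with 476 promoters above and 456 below the FVB change at an unadjusted p under 0.05. In FVB alone limma called 0 promoters and 0 windows between the same weeks, with 424 promoters higher and 264 lower at an unadjusted p under 0.05.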

How the data were processed

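ERRBS data of 10 PyMT and 12 FVB samples were used, with the group, week and replicate of each taken from its label. Per the processing notes, the authors aligned reads with Bismark to mm10. The authors deposited, sample by sample, the read count (coverage) at every CpG cytosine with at least 10 reads, strands apart and unnormalized, and the percent of these reads methylated and unmethylated. Methylated reads were recovered as coverage times percent. Nothing states that mice were from separate litters, or a sequencing date. The 6 samples compared had a coverage summed over CpG positions of 80114262 to 109502636 reads, and this depth sets the counting error only.

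Positions were tested by a logistic likelihood ratio test, and promoters and 1 kb windows (at least 5 positions) by limma 3.58.1 in R 4.3.3 on the mean percent over positions. Interactions of strain and week used 12 samples. Single values were compared by exact permutation tests. TSSs were those of 43783 curated RefSeq transcripts of 24963 autosomal genes on GRCm38. The scripts, in Python 3.11.15 with numpy 2.4.6, pandas 2.3.3 and scipy 1.17.1, were tested on simulated data. The study used methylKit and eDMR, for which the logistic test and the joined regions stand in.

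Genes named are the 10 largest gains and 10 largest losses among promoters past the limma threshold (where fewer passed, among those without overlap of mice), the 2 members of each of 26 lists with the largest absolute change, and up to 5 gained and 5 lost regions of at least 5 positions without overlap. The members, lists and tests were chosen with earlier results of these data known. Alternatives were other scales, coverage minimums, promoter widths, sample sets, region rules, the replicate block and leaving out each mouse. The X and Y chromosomes were not analysed here. A few genes and sequences that these rules select are not reported here.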

Additional observations from a re-analysis of the deposited data

Results flagged for a closer look

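At the Snurf, Snrpn and Eng promoters the mice of weeks 8 and 10 did not overlap in either strain, and the differences had opposite signs in PyMT and FVB. Snurf and Snrpn share positions of 1 locus. Other named promoters also had opposite signs, but with mice that overlapped in PyMT, in FVB or in both. The Snurf promoter was higher by 13.07 points in PyMT and lower in FVB, by -10.15 points, where the week 8 glands had 43.7%, 58.5% and 43.9% and the week 10 glands 37.1%, 43.4% and 35.2%. The interaction of strain and week had an unadjusted p of 0.00129 and an adjusted p of 0.534 (limma). The Snrpn promoter was higher by 9.93 points in PyMT and changed by -7.95 points in FVB (unadjusted p = 0.00328, adjusted p = 0.588, limma). The Eng promoter changed by -12.04 points in PyMT and by 19.1 points in FVB, where the week 8 glands had 27.3%, 20.9% and 18.7% and the week 10 glands 42.8%, 36.9% and 44.4%, but the difference between the strains was not tested there. At Eng the value rests on 5 positions.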

How the results depend on the processing

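Hyper-DMCs and hypo-DMCs numbered 0 and 0 under the overdispersion F test, 496 and 382 under its chi-square form, 780 and 675 at a minimum of 25 points, and 0 and 0 with limma per position, and 3257 hypo-DMCs remained without overlap between mice. Leaving out 1 mouse at a time gave 3983 (without week 8 replicate 2) to 8653 hyper-DMCs and 3677 to 7258 hypo-DMCs, and gains made up 49.2% to 64.5% of the DMCs. Deviations of mice with the same replicate number correlated at -0.047, -0.009 and -0.013, and those with different numbers at -0.038 to 0.059. These values show no pairing by number, but they cannot tell whether mice of the same number shared a litter or a run. With the replicate block there were 5516 hyper-DMCs and 4443 hypo-DMCs, and limma called 0 promoters and 0 windows. With all 22 samples in the fit 27 promoters were higher and 1 lower, and 34 windows higher and 1 lower. On the logit scale with 22 samples, chosen after seeing the data, 1 window was lower. Regions numbered 9 gained and 4 lost with at least 5 positions each, and 229 and 189 at a mean difference of 10 points. Weighting positions by their reads moved the mean difference over all positions to 1.69 points, and to 0.158 in core promoters, 0.615 in promoter shoulders, 1.54 in exons, 1.78 in introns and 1.89 between genes, and the cause was not tested. The difference at positions gained from week 6 to 12 was 2.17 points with a lower and 7.10 with a higher minimum gain. Of 981 alternative values for 67 named promoters 14 changed sign and 1 (Serping1, all 22 samples) passed the threshold. Those that changed sign, in points, were the Pnpla2 promoter (0.0673 with pooled reads, 0.0554 with a coverage of 20 reads and with positions covered in 22 samples, 0.108 within 500 bp), the Fap promoter (-8.99 to 0.934 with 1 mouse left out, positive without week 10 replicate 2), the Cbx7 promoter (-0.0612 with pooled reads, -0.0830 within 500 bp, and -0.0802 without week 10 replicate 1 to 0.739), the Hoxb3 promoter (1.25 upstream only), the Notch4 promoter (-4.13 to 0.426, without week 10 replicate 3), the Akt2 promoter (-0.105, without week 10 replicate 2, to 1.997), the Shc1 promoter (-0.186 upstream only, and -0.110, without week 10 replicate 3, to 1.17) and the Fhit promoter (-0.270, without week 10 replicate 3, to 1.69). Depth limits single positions most, and the lowest coverage used was 10 reads.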
